A study of Mus musculus with 24 samples.

Results

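The 10 genes described here carry the synthesis, packaging and re-uptake of the monoamine transmitters and the making of their cofactor tetrahydrobiopterin: Th, Ddc, Dbh, Slc6a2, Slc18a2, Tph2, Slc6a4, Gch1, Pts and Spr. They were listed by name among 50686 genes counted, and the question set was whether Slc6a2 and Pts are lower in knockout brain with or without the other noradrenergic genes. Slc6a2 and Pts were chosen by their lower counts in the knockout than in the control of these same libraries, so their knockout against control values are given as a description with no test. The other 8 genes belong to the list by function and were tested. All 10 genes passed the filter on low counts.

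Messenger RNA was sequenced with strand information from mouse tissue labelled back left brain, on a C57BL/6 background. The knockout mice were Pank1-/-Syn-Pank2-/- double knockouts (dKO) and the controls were wild type (WT), with females and males taken at days 10 and 20. What Syn abbreviates, and therefore in which cells Pank2 was deleted, is not given in the sources used here. The design had 3 libraries for each of 8 groups (genotype, sex and day), 24 in all, and since the labels do not tie each to an animal of its own, the p-values may reflect technical spread only. For dKO male day 10 replicate 3 the gene counts came to 45964, with 0 or 1 count for each of the 10 genes. This library was not used, which left 5 dKO libraries at day 10 and 6 in each other genotype and day. Of dKO males at day 10, 2 libraries were left, and the sexes have equal weight in differences over both. A fit without either of the 2 therefore rests the dKO male mean of that day on the other alone.

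Noradrenaline is made from tyrosine in a chain: tyrosine hydroxylase (Th) makes L-DOPA, aromatic amino acid decarboxylase (Ddc) turns it into dopamine, the vesicular transporter (Slc18a2) packs dopamine into vesicles, and dopamine beta-hydroxylase (Dbh) turns it there into noradrenaline. The plasma membrane transporter Slc6a2 takes released noradrenaline back up. Serotonin neurons use tryptophan hydroxylase (Tph2) with the same Ddc and Slc18a2, and Slc6a4 for re-uptake. Both hydroxylases need tetrahydrobiopterin, which is built from GTP by GTP cyclohydrolase (Gch1), 6-pyruvoyl-tetrahydropterin synthase (Pts) and sepiapterin reductase (Spr). In the hindbrain the noradrenaline neurons lie in the locus coeruleus and a few smaller groups, and the serotonin neurons in the raphe nuclei.

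The 23 libraries used held 9.19 to 44.7 M gene counts (M, mega), with 10.8 to 20.0 M in dKO day 10, 9.19 to 44.7 M in WT day 10, 15.9 to 27.3 M in dKO day 20 and 18.7 to 42.5 M in WT day 20. Levels are counts per 1 M scaled by TMM (CPM), given as mean ± SD, and differences are log2 fold changes ± SE from 1 fit over all 21657 genes kept. Xist and Y-linked genes matched the labelled sex in all 23. Pank1, a targeted gene, was at 7.49 ± 0.464 CPM in dKO and 22.7 ± 2.34 CPM in WT at day 20 (n = 6 each; edgeR log2 change -1.60 ± 0.08, adjusted p = 2.35e-12). Pank2 was at 42.0 ± 3.16 CPM in dKO and 56.5 ± 3.32 CPM in WT at day 20 (log2 change -0.43, adjusted p = 1.06e-06), counted over the whole gene. At day 10 Pank1 was lower too (edgeR log2 change -1.47, adjusted p = 1.7e-10), but Pank2 was not called (-0.09, adjusted p = 0.321). Pank2 was then at 49.6 ± 3.02 CPM in dKO (n = 5) and 52.5 ± 3.42 CPM in WT (n = 6). Cerebellar granule cell and Purkinje cell markers were present in every library. Markers of position varied among the day 10 libraries: the summed level of 15 hindbrain Hox genes ran from 0.167 to 124 CPM over 5 dKO libraries and from 2.28 to 69.5 CPM over 6 WT libraries. At day 20 that sum ran from 31.3 to 47.3 CPM in dKO and from 31.0 to 51.0 CPM in WT.

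The 10 genes were low to moderate in this tissue. Per kilobase of exon, the level in WT at day 20 was highest for Tph2 (mean 10.1 CPM per kb, range 4.42 to 14.2), followed by Th (7.83), Ddc (6.44), Slc18a2 (6.19), Spr (3.67), Slc6a4 (3.65), Pts (3.37), Dbh (1.76), Slc6a2 (1.09) and Gch1 (0.641). Neighbours in this order overlapped between libraries, except that every Slc18a2 value lay above every Spr value, every Pts value above every Dbh value and every Slc6a2 value above every Gch1 value. The counts behind the 2 lowest genes ran from 35 to 177 reads per library for Gch1 and from 61 to 723 for Slc6a2.

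**Figure D1:**
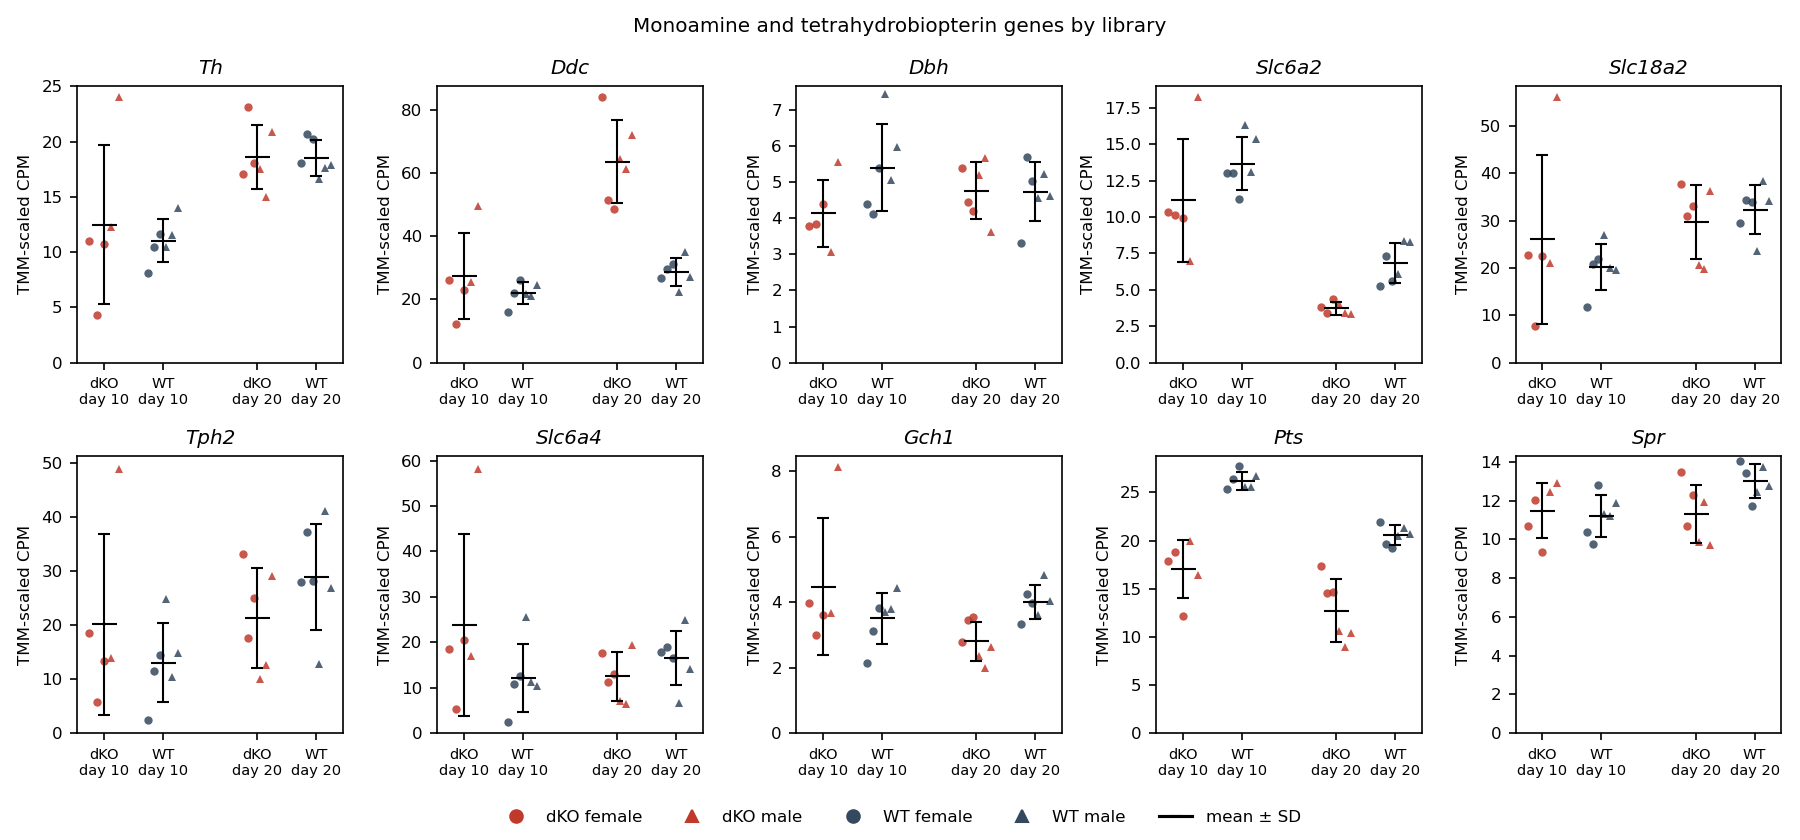
Level of each of the 10 genes in every library, in TMM-scaled CPM on axes that start at 0, with dKO left of WT at each day; circles are females, triangles are males, and bars are mean ± SD. At day 20 the dKO points lie below all WT points for Slc6a2 and Pts and above all WT points for Ddc, while for Th and Dbh the genotypes overlap.

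Slc6a2 is the noradrenaline transporter (ENSMUSG00000055368, chromosome 8, 92960079 to 93001667, plus strand, GRCm38). It was lower in dKO at day 20, while Dbh and Th, enzymes of the noradrenaline chain, were level. In dKO at day 20, Slc6a2 ran from 3.35 to 4.34 CPM with a median of 3.59, against 5.28 to 8.37 CPM with a median of 6.71 in WT. All 6 dKO libraries were below the lowest WT library. The means were 3.71 ± 0.416 CPM in dKO and 6.83 ± 1.36 CPM in WT (SD, n = 6 each), a log2 difference of -0.87 ± 0.17. Of all 21657 genes, edgeR called 38% between dKO and WT at day 20, with 18.8% higher and 19.2% lower, so a difference at this day is common in this tissue. In bulk tissue such as this, fewer cells of a type and less RNA per cell cannot be told apart.

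Dbh (ENSMUSG00000000889, chromosome 2, 27165233 to 27183200, plus strand), which makes noradrenaline and is the closest marker of noradrenaline neurons in the list, ran from 3.62 to 5.68 CPM in dKO at day 20 with a median of 4.83, against 3.32 to 5.72 CPM in WT with a median of 4.83. All 6 dKO values lay inside the WT range, and the edgeR log2 difference was 0.02 ± 0.16 (adjusted p = 0.944), with a 95% interval from -0.29 to 0.32. Th (ENSMUSG00000000214, chromosome 7, 142892752 to 142931128, minus strand) ran from 15.0 to 23.2 CPM in dKO and from 16.6 to 20.7 CPM in WT at day 20, and its median was 17.8 CPM in dKO and 18.0 CPM in WT. Its edgeR log2 difference was 0.01 ± 0.18 (adjusted p = 0.975, 95% interval -0.34 to 0.35); its sign turned with no filter, with the unstranded counts and with some libraries left out, within -0.065 to 0.067. Th and Ddc are also made by dopamine neurons, and Slc18a2 by all monoamine neurons. Among the monoamine neurons of the brain, only Dbh and Slc6a2 of the 5 chain genes are particular to noradrenaline neurons. Which cells of this tissue gave the Slc6a2 reads was not tested. In WT, Slc6a2 averaged 13.7 CPM at day 10 and 6.83 CPM at day 20, and Dbh 5.41 and 4.75 CPM.

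The ratio of Slc6a2 to Dbh within each library put both genes on 1 scale. At day 20 it averaged 0.798 in dKO, with a range of 0.596 to 1.03, against 1.45 in WT, with a range of 1.12 to 1.80. The ranges did not overlap; this ratio restates the Slc6a2 values the gene was chosen on and is no separate support. At day 10 the same ratio averaged 2.63 in dKO (2.25 to 3.27) and 2.59 in WT (2.09 to 3.14), which overlapped almost throughout. Both genes had dKO libraries below the lowest WT library at that day, 4 of 5 for Slc6a2 and 3 of 5 for Dbh. The corresponding ratio in serotonin neurons, the transporter Slc6a4 over the enzyme Tph2, averaged 0.596 in dKO (0.515 to 0.698) and 0.568 in WT (0.512 to 0.640) at day 20.

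**Figure D2:**
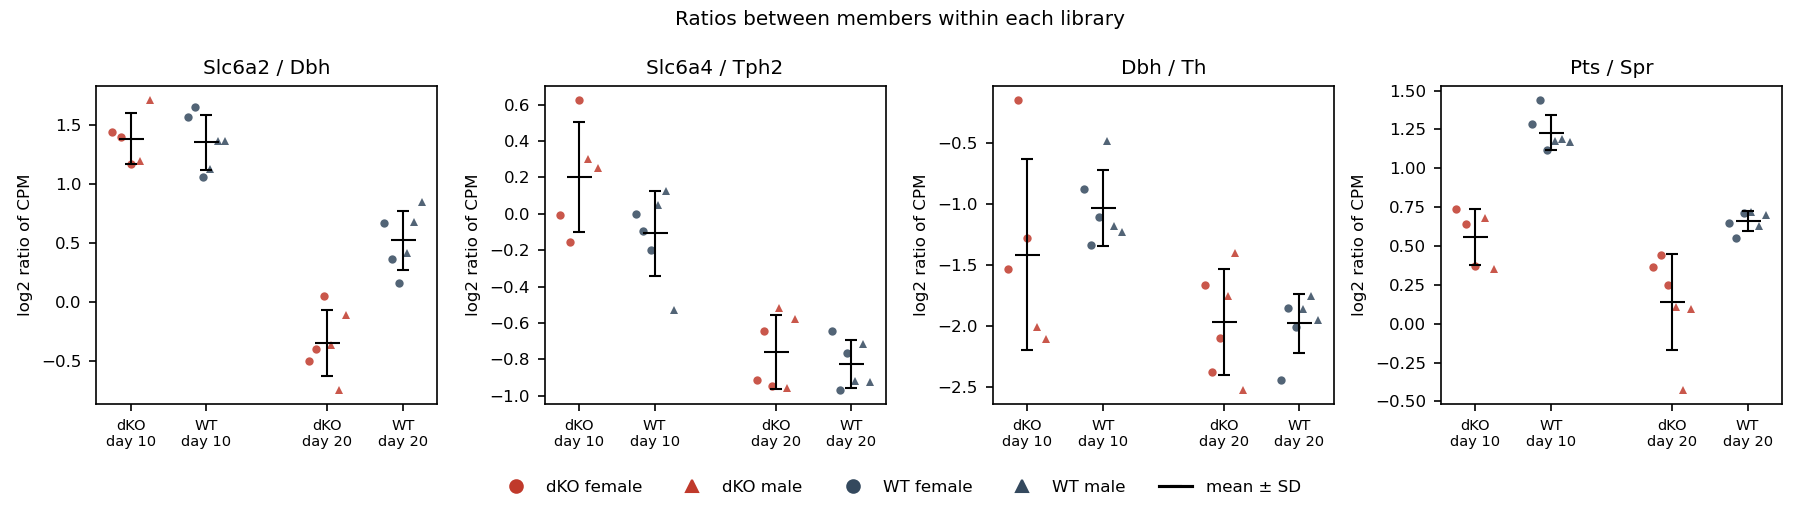
Log2 ratio of CPM between pairs of genes within each library, dKO left of WT at each day, with mean ± SD. Slc6a2 over Dbh is lower in every dKO library than in every WT library at day 20 and not at day 10, whereas Pts over Spr is lower in every dKO library at both days.

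At day 10, Slc6a2 was at 10.3, 10.2 and 9.93 CPM in dKO females and at 7.01 and 18.3 CPM in dKO males, against 11.3 to 16.3 CPM with a median of 13.0 in WT. Of the 5 dKO libraries, 4 were below the lowest WT library and 1, dKO male replicate 2, was above the highest. The log2 difference was -0.27 ± 0.16 with that library and -0.70 without it, where male replicate 1 (7.01 CPM) stands alone for dKO males. Male replicate 2 was also the library with 0.167 CPM over the 15 Hox genes. It had 11.8 CPM over 6 choroid plexus markers (368 to 612 CPM in the other dKO day 10 libraries and 251 to 577 CPM in WT). Over 9 granule cell markers it had 831 CPM (1969 to 3024 CPM in the other dKO libraries and 2182 to 4382 CPM in WT). The part of these markers in the day 10 values was not tested. The difference between the days in the dKO minus WT log2 value of Slc6a2 was -0.61 with all libraries and -0.17 without that library.

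Pts (ENSMUSG00000032067, chromosome 9, 50521617 to 50528724, minus strand), the middle enzyme of tetrahydrobiopterin synthesis, was lower in dKO at both days. At day 20 it ran from 8.89 to 17.3 CPM in dKO with a median of 12.6, against 19.2 to 22.0 CPM in WT with a median of 20.6. At day 10 it was at 17.9, 18.8 and 12.1 CPM in dKO females and at 20.0 and 16.5 CPM in dKO males, against 25.3 to 27.8 CPM in WT with a median of 26.0. No dKO library reached the lowest WT library at either day. The log2 differences were -0.73 ± 0.09 at day 20 and -0.61 ± 0.09 at day 10, and they stayed between -0.77 and -0.69 at day 20 and between -0.69 and -0.52 at day 10 under all alternatives. The library with low Hox and choroid plexus markers at day 10 was, at 16.5 CPM, inside the range of the other dKO libraries for Pts.

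The neighbouring enzymes of the same pathway did not follow Pts at both days. Gch1 (ENSMUSG00000037580, chromosome 14, 47153895 to 47189413, minus strand), which catalyses the committed step, fell at day 20 in dKO by 0.54 ± 0.17 on the log2 scale (edgeR adjusted p = 0.0172). Its values ran from 2.003 to 3.55 CPM in dKO with a median of 2.72, against 3.32 to 4.83 CPM in WT with a median of 4.01; 4 of 6 dKO libraries were below the lowest WT library, so the groups overlapped. Spr (ENSMUSG00000033735, chromosome 6, 85130176 to 85137766, minus strand), which finishes the cofactor, was at 11.3 ± 1.49 CPM in dKO and 13.0 ± 0.877 CPM in WT at day 20 (n = 6 each). The edgeR log2 difference of -0.20 ± 0.09 missed the threshold (adjusted p = 0.0673), although it passed with dKO female replicate 1, dKO male replicate 2 or WT female replicate 3 of day 20, or WT female replicate 3 of day 10, left out (adjusted p = 0.0297 to 0.0494). Against Spr in the same library, Pts averaged 1.12 in dKO (0.745 to 1.36) and 1.58 in WT (1.47 to 1.65) at day 20, and 1.48 in dKO (1.28 to 1.67) and 2.35 in WT (2.17 to 2.71) at day 10. Neither pair of ranges overlapped, and this ratio too restates the values Pts was chosen on.

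At day 10, Gch1 was at 3.97, 2.99 and 3.62 CPM in dKO females and at 3.67 and 8.15 CPM in dKO males, against 2.14 to 4.43 CPM in WT with a median of 3.75. All dKO values but that of male replicate 2 lay inside the WT range, and the edgeR log2 difference of 0.41 was not called (adjusted p = 0.163). Without dKO male replicate 1 it was 0.64, where male replicate 2 stands alone for dKO males. The genotype difference of Gch1 changed between the days by -0.94 ± 0.25 on the log2 scale (edgeR adjusted p = 0.00714), 1 call among the 8 tested genes where 28.3% of all genes were called (13.6% higher and 14.7% lower). Without dKO male day 10 replicate 2 the change was -0.59 and not called (adjusted p = 0.0622). Spr showed no such difference at day 10, with 11.5 ± 1.44 CPM in dKO (n = 5) and 11.2 ± 1.07 CPM in WT (n = 6; log2 0.05, adjusted p = 0.808).

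Ddc (ENSMUSG00000020182, chromosome 11, 11814101 to 11898144, minus strand), the decarboxylase shared by all monoamine neurons, was the only tested gene of the list that rose in dKO at day 20. It ran from 48.7 to 84.1 CPM in dKO with a median of 62.9, against 22.4 to 35.2 CPM in WT with a median of 28.4. All 6 dKO libraries were above the highest WT library. The means were 63.7 ± 13.2 CPM in dKO and 28.7 ± 4.33 CPM in WT (n = 6 each), a 2.23-fold difference (edgeR log2 1.16 ± 0.20, adjusted p = 0.000229) that stayed between 1.01 and 1.25 on the log2 scale under all alternatives. At day 10 Ddc was at 26.2, 12.2 and 23.1 CPM in dKO females and at 25.5 and 49.6 CPM in dKO males, against 15.9 to 26.2 CPM in WT with a median of 21.9 (log2 0.36, adjusted p = 0.34). The day 10 values of the genotypes overlapped, with male replicate 2 again highest. The change of the genotype difference between the days was 0.80 ± 0.30 on the log2 scale (edgeR adjusted p = 0.0528); it was called by DESeq2 (0.82, adjusted p = 0.0282), by limma-voom (0.84, adjusted p = 0.0398) and with all 24 libraries (0.80, adjusted p = 0.045).

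Ddc and Gch1 were thus the 2 of 8 tested genes called at day 20, with 1 in each direction, and no alternative changed that count apart from single left-out libraries that added Spr. That share is not above the 38% of all genes. The remaining 3 genes overlapped between the genotypes at day 20. Slc18a2, on the plus strand of chromosome 19 (59260896 to 59296012), averaged 29.7 ± 7.75 CPM in dKO and 32.3 ± 5.15 CPM in WT (log2 -0.13, edgeR adjusted p = 0.736). Tph2, on the minus strand of chromosome 10 (115078641 to 115185022), averaged 21.2 ± 9.28 CPM in dKO and 28.9 ± 9.81 CPM in WT (log2 -0.47, adjusted p = 0.448), and Slc6a4, on the plus strand of chromosome 11 (76998603 to 77032340), averaged 12.5 ± 5.35 CPM in dKO and 16.5 ± 6.01 CPM in WT (log2 -0.40, adjusted p = 0.548). The intervals of the serotonin genes were wide, from -1.33 to 0.40 for Tph2 and from -1.34 to 0.53 for Slc6a4.

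**Figure D3:**
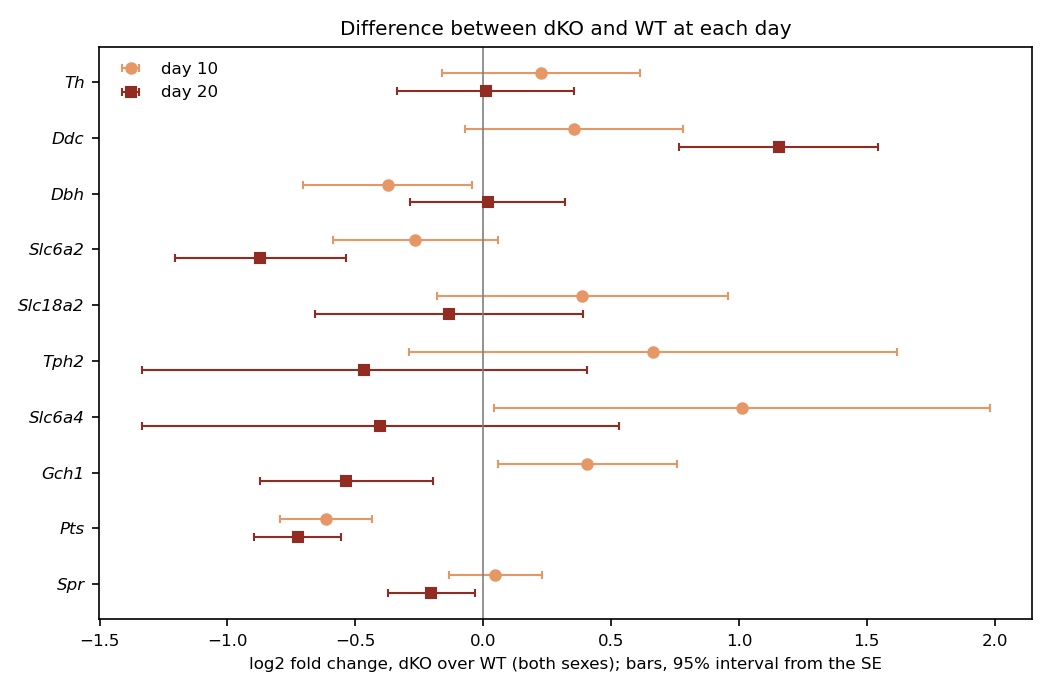
Log2 fold change of dKO over WT for each gene at day 10 (circles) and day 20 (squares), with 95% intervals from the SE. At day 20 the interval of Ddc lies above 0 and those of Slc6a2, Pts and Gch1 below it, while those of Th and Dbh are centred near 0; Slc6a2 and Pts were chosen for this difference.

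To show the sequence just upstream of Pts, Ddc and Gch1, whose levels differed between the genotypes at day 20, the RefSeq promoter windows (GRCm38.p6) are given 5' to 3' on the gene's strand, in lower case with matches to the motifs searched in capitals. Ddc has a distal and a proximal start, and both are shown; the stretch of Pts ends where its annotated exon begins.
Pts, chr9:50528725-50528906, minus strand: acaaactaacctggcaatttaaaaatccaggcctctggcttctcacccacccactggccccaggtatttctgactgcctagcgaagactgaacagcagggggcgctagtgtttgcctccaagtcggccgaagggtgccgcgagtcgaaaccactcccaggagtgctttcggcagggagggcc
Ddc distal start, chr11:11898145-11898394, minus strand: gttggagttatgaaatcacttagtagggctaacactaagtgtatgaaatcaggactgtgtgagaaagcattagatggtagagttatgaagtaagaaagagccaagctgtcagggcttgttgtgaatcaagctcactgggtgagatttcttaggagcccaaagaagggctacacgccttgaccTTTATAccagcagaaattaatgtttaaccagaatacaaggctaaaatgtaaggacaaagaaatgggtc
Ddc proximal start, chr11:11890409-11890658, minus strand: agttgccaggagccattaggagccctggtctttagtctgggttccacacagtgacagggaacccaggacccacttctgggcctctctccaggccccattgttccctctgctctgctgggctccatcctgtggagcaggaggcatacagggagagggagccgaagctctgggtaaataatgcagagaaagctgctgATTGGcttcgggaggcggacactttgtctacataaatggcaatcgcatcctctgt
Gch1, chr14:47189414-47189663, minus strand: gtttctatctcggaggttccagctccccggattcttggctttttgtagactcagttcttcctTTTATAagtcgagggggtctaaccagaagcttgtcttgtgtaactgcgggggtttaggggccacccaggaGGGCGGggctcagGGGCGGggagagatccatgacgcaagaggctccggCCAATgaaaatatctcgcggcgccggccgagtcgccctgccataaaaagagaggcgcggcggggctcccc
The motifs, searched on both strands in the 250 bases before each start, were TATAAA (the TATA box), CCAAT (the CCAAT box), GGGCGG (the GC box), TGACGTCA (the cyclic AMP response element), CACGTG (the E-box), AGAACA (a glucocorticoid receptor half-site, also contained in the full site), and 2 longer ones, the full glucocorticoid response element and a paired homeodomain site. The capitals in Gch1 are TTTATA, which reads TATAAA on the other strand, GGGCGG at 2 places and CCAAT. Those in Ddc are TTTATA before the distal start and ATTGG, which reads CCAAT on the other strand, before the proximal one. The printed stretch of Pts held none, and its window had a GGGCGG nearer the start, at position -45. Of 32851 promoter windows of this length, 12.4% held TATAAA, 33.8% CCAAT and 32.7% GGGCGG. A window was found for 9 of the 10 genes. TGACGTCA, in 1.55% of all windows, was found among them in Th, at position -45, and AGAACA, in 16.1%, in Slc18a2. CACGTG (6.02% of all windows), the full glucocorticoid response element (0.00913%) and the homeodomain site (0.247%) were found in none of the 9. These matches describe letters in a window and nothing about binding.

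At day 10, none of the 8 tested genes was called between dKO and WT by edgeR, DESeq2 or limma-voom, where 4.99% of all genes were (3.23% higher and 1.76% lower; 1081 of 21657, with 5294 at an unadjusted p under 0.05). Dbh averaged 4.14 ± 0.937 CPM in dKO and 5.41 ± 1.21 CPM in WT (log2 -0.37 ± 0.17, edgeR adjusted p = 0.175). It was at 3.80, 3.84 and 4.41 CPM in dKO females and at 3.06 and 5.58 CPM in dKO males. The highest of these was male replicate 2. Of the 5 dKO libraries, 3 were below the lowest WT library for Dbh (4.135 CPM) and 0 above the highest. For Slc6a2, 4 of the 5 were below the lowest WT library at this day. Th was at 11.03, 4.27 and 10.7 CPM in dKO females and at 12.3 and 24.1 CPM in dKO males, against 8.09 to 14.0 CPM in WT (log2 0.23, adjusted p = 0.527). In Slc18a2, Tph2 and Slc6a4 the dKO libraries also spread further than the WT libraries, between 7.77 and 56.0, 5.81 and 48.8, and 5.21 and 58.1 CPM in dKO against 11.8 to 27.0, 2.39 to 24.7 and 2.39 to 25.6 CPM in WT. In all 3 the highest dKO library was male replicate 2 and the lowest was female replicate 2, which had the highest Hox sum, 124 CPM. The number of genes called at day 10 depended on the libraries. It was 15 without dKO male replicate 2, 72 without dKO female replicate 2, 170 without dKO female replicate 3, 91 without WT male replicate 1, 422 and 434 without WT female replicates 1 and 2, 670 without WT female replicate 3 and 619 to 700 without WT female replicates 1 to 3, dKO female replicate 2 or dKO male replicate 3 of day 20. It was 4516 without dKO male replicate 1, 2063 without dKO female replicate 1 and 2384 without WT male replicate 3.

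Between the days in WT, Slc6a2 and Pts fell and Th rose. Slc6a2 had a median of 6.71 CPM at day 20 against 13.0 CPM at day 10, and every day 20 library was below every day 10 library. The edgeR log2 change was -1.01 ± 0.16 (adjusted p = 1.49e-05). For Pts the medians were 20.6 CPM at day 20 and 26.0 CPM at day 10 (log2 -0.35 ± 0.08, adjusted p = 0.00125), again without overlap, and for Th they were 18.0 CPM at day 20 and 10.98 CPM at day 10 (log2 0.76 ± 0.18, adjusted p = 0.00175). These 3 calls held under all alternatives run. Slc6a2 and Pts were chosen on dKO against WT differences in which these WT libraries took part. Their 2 calls between the days are therefore not independent of that choice. In all, 6 of the 10 genes were called, where 50.4% of all genes were (25.5% higher and 24.9% lower). Calls of Tph2 (log2 1.17, adjusted p = 0.0414), Slc18a2 (0.67, adjusted p = 0.0484) and Spr (0.21, adjusted p = 0.043) were each lost in several alternatives, and 3 genes were called without WT female replicate 1 or 2 or WT male replicate 2 of day 10, or WT female replicate 1 or 2 or WT male replicate 2 or 3 of day 20. Dbh was not called (log2 -0.19, adjusted p = 0.31).

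Between the days in dKO, 3 of the 8 tested genes were called, where 61.6% of all genes were (30.4% higher and 31.2% lower). Ddc rose by 1.19 ± 0.22 on the log2 scale (edgeR adjusted p = 0.000153) and Th by 0.54 (adjusted p = 0.0218), while Gch1 fell by 0.74 (adjusted p = 0.00138). Without dKO male day 10 replicate 2 the fall of Gch1 was 0.40 and not called (adjusted p = 0.0576), and the rise of Th was not called without dKO male day 10 replicate 1 (0.34, adjusted p = 0.138), dKO female day 20 replicate 2 (adjusted p = 0.055) or dKO male day 20 replicate 3 (adjusted p = 0.0507). Slc6a2 had a median of 3.59 CPM at day 20 and 10.2 CPM at day 10 in dKO, and Pts 12.6 and 17.9 CPM.

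By sex, Pts at day 20 was lower in dKO males than in dKO females. It was at 10.6, 8.89 and 10.4 CPM in dKO males and at 17.3, 14.5 and 14.6 CPM in dKO females, against 20.5 to 21.3 CPM in WT males and 19.2 to 22.0 CPM in WT females. The dKO sexes did not overlap and the WT sexes did. The genotype by sex difference at day 20 was -0.68 ± 0.17 on the log2 scale (male minus female), given with no test since Pts was chosen on these dKO libraries. At day 10 it was 0.21. Of the 8 tested genes edgeR called 0 in this contrast at either day, where 0% of all genes were called, with 3220 at an unadjusted p under 0.05 at day 20 and 2482 at day 10; DESeq2 called 347 genes at day 20. Slc6a2 at day 20 was at 3.59 ± 0.385 CPM in dKO males and 3.84 ± 0.485 CPM in dKO females, against 7.58 ± 1.31 CPM in WT males and 6.08 ± 1.10 CPM in WT females (n = 3 each; genotype by sex -0.39, with no test). None of the 10 genes was called between WT males and WT females, where 0.0693% of all genes were (0.0416% higher and 0.0277% lower), 15 genes, with 23 by DESeq2 and 544 at an unadjusted p under 0.05.

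The libraries of a group also varied together in some of these genes. After each gene's group mean was taken away, Tph2 and Slc6a4 followed each other over the 23 libraries with Pearson r = 0.963 (permutation p = 0.00011, adjusted over 45 pairs 0.00124) and Spearman rho = 0.952 (permutation p = 0.00011, adjusted 0.00165), and r was 0.951 without the 2 libraries farthest from the median of Tph2. Libraries were permuted within groups 100000 times, two-sided. Th and Gch1 had r = 0.762 (permutation p = 0.00011, adjusted 0.00124) and rho = 0.837 (permutation p = 0.00027, adjusted 0.0027), with r = 0.785 without the 2 farthest libraries. In all, 10 of 45 pairs were called by Pearson's r and 8 by both measures; all 10 were positive, and neither Slc6a2 nor Pts was in any of them. Slc6a2 and Dbh had r = 0.628 (permutation p = 0.0918, adjusted 0.243) and rho = 0.466 (permutation p = 0.143, adjusted 0.379), and r was 0.39 without the 2 farthest libraries. Slc6a2 and Pts had r = -0.24 (permutation p = 0.578, adjusted 0.733) and rho = -0.196 (permutation p = 0.499, adjusted 0.702), with r = 0.03 without the 2 farthest libraries. The points share library, depth and dissection, and dKO male day 10 replicate 2 lies above every WT library of that day in 8 of the 10 genes.

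**Figure D4:**
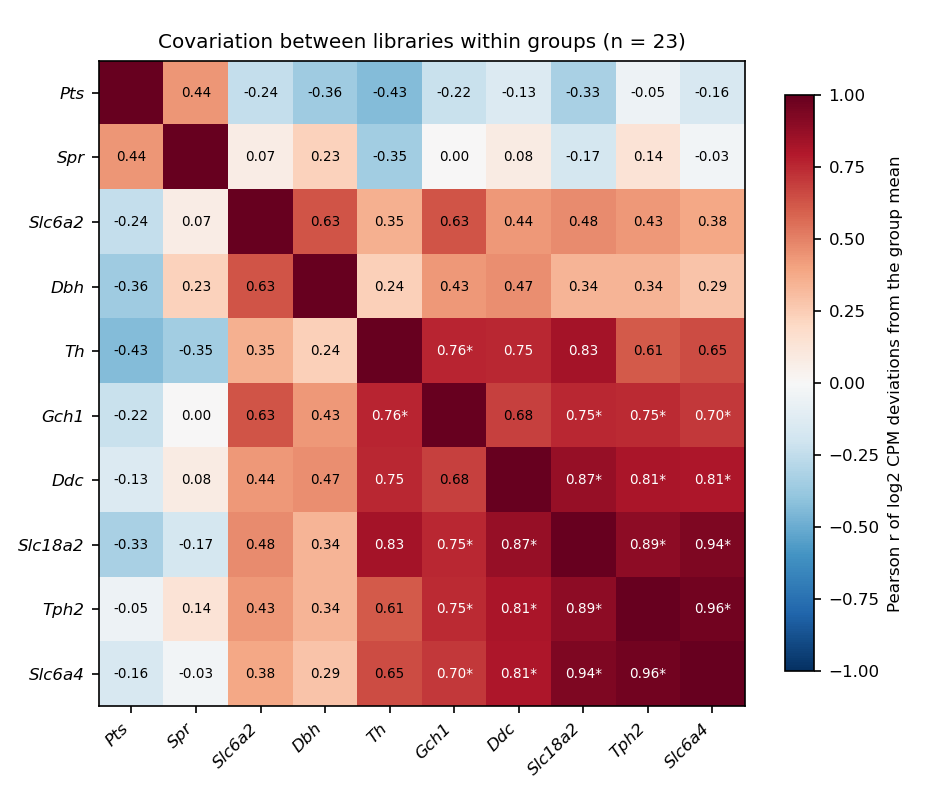
Pearson correlation between genes over 23 libraries after the mean of each group of genotype, sex and day was removed from the log2 CPM; asterisks mark pairs with an adjusted permutation p under 0.05. The serotonin genes with Slc18a2 and Ddc form the block of high values (0.81 to 0.96), and all negative values are in the rows of Pts and Spr.

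The genes whose within-group deviations were most like those of Slc6a2, among 16984 genes averaging 1 CPM or more, were Lmntd1 (r = 0.839 over 23 libraries), Acbd6 (0.802), Fhad1 (0.786), Rgs22 (0.769) and Ccdc106 (0.768). Dbh ranked 171 in that order. None of the 5 was lower in dKO at day 20 to the extent of Slc6a2: Lmntd1 had a log2 difference of -0.24, Rgs22 -0.05, Fhad1 0.24, Acbd6 0.27 and Ccdc106 0.43. Among those most like Pts were Gm29170 (r = 0.81), Sdhd (0.807), Rnf125 (0.778) and Zfp35 (0.738), and Spr ranked 466. Sdhd, a subunit of succinate dehydrogenase, lies close to Pts on chromosome 9 (50596357 to 50603812). Its log2 difference at day 20 was -0.17, with 53.0 ± 4.32 CPM in dKO and 59.5 ± 1.82 CPM in WT (n = 6 each).

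The wider pathway lists were counted without the 10 genes, and each count at day 20 stands against the 18.8% of all genes called higher and the 19.2% called lower. Among 7 other genes of pterin synthesis, recycling and regulation at day 20, 2 fell and 1 rose in dKO, with a median log2 difference of -0.19 against 0.00 for all genes. Qdpr, which regenerates tetrahydrobiopterin from its quinonoid dihydro form, was at 47.3 ± 5.11 CPM in dKO and 74.7 ± 11.3 CPM in WT (n = 6 each; edgeR log2 -0.66 ± 0.06, adjusted p = 2.63e-08). It was level at day 10, with 41.2 ± 2.999 CPM in dKO and 43.1 ± 2.56 CPM in WT, and its genotype difference changed between the days (log2 -0.60, adjusted p = 4.2e-05). Qdpr is abundant in oligodendrocytes, of which 2 of 7 markers fell at day 20, with a summed level of 11580 to 14690 CPM in dKO and 14830 to 19260 CPM in WT; their part in the Qdpr value was not tested. At day 10, 4 of the 7 markers were called lower, where 1.76% of all genes were (median log2 -0.58, against -0.33 at day 20). Their sum was 3900 to 6103 CPM in dKO and 5743 to 11580 CPM in WT. The log2 differences of Mbp, Mobp, Mag and Cnp were -0.57, -0.62, -0.58 and -0.52 with all libraries. Without dKO male replicate 2 of day 10 they were -0.47, -0.52, -0.46 and -0.43. The day 10 calls of these 4 markers depend on that library, and the fit without it leaves 1 dKO male library. The part of these markers at day 10 was not tested either. Akr1b3, an aldose reductase that can act on pterin intermediates, fell by 0.29 at day 20. Of 5 other enzymes that use tetrahydrobiopterin, the nitric oxide synthases Nos3 (log2 -0.76, edgeR adjusted p = 8.43e-07) and Nos2 (-1.82, adjusted p = 4.14e-05) fell at day 20. Nos2 was low, at 0.322 ± 0.166 CPM in dKO and 1.12 ± 0.255 CPM in WT. Nos3 is the endothelial form, and 6 of 7 endothelial markers fell, with a summed level of 139.8 to 178.7 CPM in dKO and 212 to 227 CPM in WT; their part was not tested.

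Of 7 other noradrenaline neuron genes tested at day 20, 2 fell and none rose. Hcrtr1, an orexin receptor found on locus coeruleus neurons, was at 3.16 ± 0.520 CPM in dKO and 4.72 ± 0.497 CPM in WT (n = 6 each; edgeR log2 -0.56 ± 0.19, adjusted p = 0.0227), and Maoa, which breaks down noradrenaline and serotonin, fell by 0.26 (adjusted p = 0.00113). Of the transcription factors of these neurons, Tfap2b was not called (log2 0.08, adjusted p = 0.689) and Phox2a was too low to be tested. The peptide gene Gal (0.14, adjusted p = 0.737), the autoreceptor Adra2a (-0.19, adjusted p = 0.245) and the vesicle cytochrome Cyb561 (-0.22, adjusted p = 0.0672) were also not called. The sympathetic neuron factors Hand1 and Hand2 were at 0 counts in all 23 libraries. Brainstem cholinergic markers (0 of 5 tested) and hindbrain Hox genes (0 of 15) were not called at day 20 either. At day 10 Maoa was called higher (log2 0.29, adjusted p = 0.0187), but not without dKO male replicate 2 (0.18, adjusted p = 0.289), and 0 of the 7 fell.

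Among 8 other serotonin neuron genes, Gata2, a transcription factor, rose at day 20 (log2 0.40, edgeR adjusted p = 0.0122) and 0 fell. Of 13 other genes of midbrain dopamine neurons, 3 fell (Ret by 0.28, Nr4a2 by 0.54 and Aldh1a1 by 0.39) and Pitx3 rose, from a low level (0.547 ± 0.283 CPM in dKO and 0.093 ± 0.067 CPM in WT), while the dopamine transporter Slc6a3 was not called (log2 -0.16, adjusted p = 0.802). Of 9 genes of monoamine breakdown and low-affinity uptake, 4 fell, among them Maob (by 0.39), and the second vesicular transporter Slc18a1 rose (1.24 ± 0.374 CPM in dKO and 0.575 ± 0.161 CPM in WT; log2 1.10, adjusted p = 0.000927). Of 5 cofactor genes, pyridoxal kinase Pdxk, which supplies the cofactor of Ddc, rose by 0.48, and the copper transporters Slc31a1 and Atp7a, of the pathway that supplies copper to enzymes such as Dbh, fell by 0.35 and 0.33.

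On the receiving side, 3 of 9 adrenergic receptor genes rose at day 20 and 0 fell, with a median log2 difference of 0.26. Among them, Adra2c rose by 0.49 ± 0.15 (edgeR adjusted p = 0.0143) and Adra1a by 0.41 ± 0.11 (adjusted p = 0.00604). The genotype difference of Adra2c changed between the days by 0.81 (adjusted p = 0.00778). Of 4 dopamine receptor genes tested Drd1 fell (log2 -0.73, adjusted p = 0.0031), and of 12 serotonin receptor genes Htr1b fell (-0.32, adjusted p = 0.00641). At day 10 Drd1 (log2 0.69), Htr1a (0.60) and Htr7 (0.64) were called higher in dKO, and none of them without dKO male replicate 2 (0.56, 0.30 and 0.42; edgeR adjusted p = 0.339, 0.473 and 0.301). In that library the serotonin receptors summed to 299.4 CPM, against 160.8 to 177.4 CPM in the other dKO day 10 libraries. Of all the genes in these lists, Slc6a2 and Pts aside, 10 were called at day 10, where 4.99% of all genes were. The lists held 207 symbols in all, some of them too low to be tested, so the share was near that of all genes. Among the 10 were 4 oligodendrocyte markers. Without that library all 10 differences kept their sign and were smaller, from 1.06 to 0.50 for Lhx2 and from -0.57 to -0.47 for Mbp. The calls of the 10 depend on that library, and the fit without it leaves 1 dKO male library at day 10.

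Markers of several non-neuronal cell types, but not of all, were mostly lower in dKO at day 20. Of 7 astrocyte markers 2 rose and 2 fell, with a median log2 difference of -0.09. All 7 microglia markers, 6 of 6 erythrocyte markers, 6 of 7 meningeal, 5 of 7 pericyte and 4 of 6 choroid plexus markers fell in dKO. The summed levels were 80.2 to 128.7 CPM in dKO and 150.3 to 179 CPM in WT for microglia, 92.4 to 131 CPM in dKO and 148.6 to 216 CPM in WT for meningeal fibroblasts, and 75.8 to 130.7 CPM in dKO and 319.9 to 676 CPM in WT for erythrocytes. Of the Purkinje cell markers 0 of 7 were called, and their sum was 2963 to 3352 CPM in dKO and 2653 to 3721 CPM in WT. Of the granule cell markers 2 of 9 rose, with a sum of 3128 to 3897 CPM in dKO and 2613 to 3895 CPM in WT. For a genotype difference higher at day 20 than at day 10, 3 of 9 were called, where 13.6% of all genes were. That contrast includes dKO male day 10 replicate 2, at 831 CPM over these markers. The part of these lists in the values of Slc6a2, Pts, Ddc and Gch1 was not tested.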

How the data were processed

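For every library the authors deposited a table that lists raw counts by gene, with columns for unstranded, forward-strand and reverse-strand counts. The submitters' processing notes name STAR 2.5.2b, HTSeq and the build GRCm38.p5; which tool made the counts, and on which annotation, is not given in the sources used here. The reverse-strand column was used, as the libraries were stranded per the labels' protocols, and the 4 entries that name no gene were left out of totals. Symbols, positions and exon lengths came from GENCODE M21 (GRCm38), which matched 50462 of 50686 identifiers. Ddc, Slc18a2 and Slc6a4 overlap antisense genes, which strand separates, and Gch1 overlaps the pseudogenes Gm49134 and, on its own strand, Gm18811.

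Libraries with under 1000000 gene counts were left out (1 of 24). Genes were kept by filterByExpr, scaled by TMM and fitted with 8 group means by edgeR 4.0.16 (R 4.3.3; robust quasi-likelihood, two-sided), with Benjamini-Hochberg adjustment over 21657 genes and calls under 0.05. Differences over both sexes are means of the sex-specific contrasts. Log2 CPM for correlations used a prior count of 2. The 10 genes and the gene lists were chosen with earlier results of these data known. All 10 genes are named throughout; of other lists, up to 4 called genes with the smallest p are named, together with uncalled genes that define a cell type, which were added after their values were seen. A few genes that this rule names are not reported here. Alternatives were RLE size factors, no filter, the unstranded column, DESeq2 1.42.0, limma-voom (limma 3.58.1), all 24 libraries and leaving out each replicate. Depth limits the low genes, and all intervals cover the spread between libraries as fitted.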

Additional observations from a re-analysis of the deposited data

Results flagged for a closer look

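Within dKO at day 10, male replicate 2 stood apart from the other 4 libraries in Gch1 (8.15 CPM; gap over range 0.81, against a critical value of 0.71) and in Slc6a4 (58.1 CPM; 0.711). Among 40 groups of 5 or 6 libraries examined, these 2 were found, and chance gives about 1 in 20. Gch1 was also noted because its dKO against WT difference changed between days 10 and 20, by -0.943 on the log2 scale (edgeR adjusted p = 0.00714), a value that was -0.585 without that library (adjusted p = 0.0622).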

How the results depend on the processing

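No paired analysis was possible because replicate numbers were given in accession order and pair no libraries. The counts of called genes among the 8 tested at day 20 (2) and day 10 (0) held under RLE size factors, no filter, unstranded counts, DESeq2, limma-voom and all 24 libraries. DESeq2 called 2105 genes at day 10, 347 for genotype by sex at day 20 and 23 between WT sexes; with no filter the genotype by sex contrasts gave 177 genes at day 20 and 2 at day 10. Pts was the 1 gene of the 10 called for genotype by sex under DESeq2 and under no filter, which is no support, since it was chosen on these dKO values. For genotype by day, 2 genes were called by DESeq2, limma-voom and all 24 libraries. Between days in WT, 3 were called with no filter and 3 with unstranded counts. Leaving out each library gave 15 to 4516 genes at day 10, 0 to 150 for genotype by sex at day 20 (150 without dKO male day 20 replicate 2) and 0 to 1997 at day 10 (1997 without dKO male day 10 replicate 1), with 0 to 1 of the 8 called at day 10, 1 to 2 for genotype by day and 3 to 6 of 10 between days in WT. The sign turned for Th at day 20 (-0.003 with no filter, -0.005 unstranded, 0.00 by limma-voom) and for Slc18a2 between days in dKO (-0.034 unstranded). Left-out libraries turned signs within these ranges: at day 20, Dbh -0.081 to 0.10 and Th -0.065 to 0.067; at day 10, Th -0.065 to 0.43 and Slc18a2 -0.063 to 0.66; for genotype by day, Th -0.43 to 0.076; between days in dKO, Spr -0.088 to 0.008, Slc18a2 -0.12 to 0.58 and Tph2 -0.28 to 0.63. The cause was not tested. Without dKO male day 10 replicate 2, Dbh was called for genotype by day (0.66, adjusted p = 0.0429).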

Other observations

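The genes around Pts and Slc6a2 were looked at after their values were seen, with no test. Within 250000 bases of Pts, Cryab, a small heat shock protein abundant in oligodendrocytes and lens (chromosome 9, 50751325 to 50756636), was lower in every dKO library than in every WT library at both days. It was at 18.1 ± 3.94 CPM in dKO and 55.3 ± 10.2 CPM in WT at day 20 (n = 6 each; log2 -1.62 ± 0.23), and at 6.70 ± 2.70 CPM in dKO (n = 5) and 15.4 ± 6.04 CPM in WT (n = 6) at day 10 (log2 -1.21 ± 0.28). The genes between them were not lower to the extent of Cryab. Log2 differences at day 20 were -0.57 for Bco2, -0.04 for Il18, -0.17 for Sdhd, -0.12 for Dlat and 0.27 for Dixdc1. Bco2, beside Pts, was low, with means of 0.883 CPM in dKO and 1.26 CPM in WT at day 20. Its log2 difference at day 10 was -0.43 ± 0.28, and the genotypes overlapped at both days. Beside Slc6a2 on chromosome 8, Lpcat2 (92855339 to 92919279) was at 6.26 ± 1.38 CPM in dKO and 10.7 ± 1.14 CPM in WT at day 20 (n = 6 each; log2 -0.77 ± 0.14), and Mmp2 had a log2 difference of -0.23. Beside Ddc, Grb10 was level at day 20, with 91.2 ± 5.76 CPM in dKO and 91.2 ± 6.34 CPM in WT.

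Lmntd1, Fhad1 and Rgs22, which varied most like Slc6a2 within groups, prompted a look at 10 motile cilia genes, among them Foxj1, Hydin and Spag17. All 10 had a positive within-group r with Slc6a2, from 0.095 to 0.561 with a median of 0.4, over the same 23 libraries, which share depth and dissection. Their log2 differences had a median of -0.57 at day 20 (0.00 for all genes), with 9 of 10 lower in dKO and Dnah11 higher (0.60). At day 10 the median was 0.45, and both are given with no test. At day 20 Foxj1 (-0.10 ± 0.13) and Hydin (-0.14 ± 0.13) differed little, and several others were near or under 1 CPM. The summed level of the 10 was 75.2 ± 6.31 CPM in dKO and 64.2 ± 7.82 CPM in WT, with Dnah11 at 49.1 and 32.8 CPM.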
